A study of Mus musculus with 8 samples.

Results

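The MYB family of transcription factors was followed in RNA from heart muscle cells (cardiomyocytes) of adult mice kept in culture. Its members were taken by name, as the 3 rows MYBL1, MYB and MYBL2 among the 33514 gene rows of the series, and were put forward because MYBL1 was lower in cells given an siRNA against Hoxa5. The values of that contrast chose the family, so they are given below as a description, without a test. All 3 rows were found, 2 of them had a count in any library, and 1, MYBL1, passed the filter on low counts that left 3020 genes for testing.

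MYB proteins bind DNA through repeats of a short helical fold near their amino terminus and activate transcription through coactivators such as CREBBP and EP300. The members have different known settings: MYB, the cellular form of a retroviral oncogene, maintains blood progenitors, MYBL1 (A-Myb) drives meiotic and piRNA genes in male germ cells, and MYBL2 (B-Myb) acts in dividing cells, where it joins the MuvB complex at genes of the G2 and M phases. In resting cells MuvB instead forms the repressive DREAM complex with a pocket protein and an E2F factor. Adult cardiomyocytes are known as cells that have largely left the cell cycle.

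The cells came from C57BL/6 mice, were plated after enzymatic digestion of the heart, and received either a control siRNA (siN, 4 libraries) or an siRNA against Hoxa5, a homeobox transcription factor (siHoxa5, 4 libraries). Both groups were then given phenylephrine, which activates alpha1-adrenergic receptors and is used to make these cells grow, at 100 µM for 24 h, starting 24 h after transfection. No library without phenylephrine was used here. Whether the 4 libraries within a group are separate animals or cultures is not stated in the labels, and errors and p-values cover the spread between these libraries, which may be technical. Since the RNA was bulk, fewer cells of a type and less RNA per cell cannot be told apart.

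Total counts per library ran from 635824.5 to 658192 in siN and from 560190 to 619941.5 in siHoxa5, with 5312 to 5763 genes seen per library. Gene symbols in the files were spelled as human genes are: of the 33514 rows, 19 had an exact mouse spelling and 16245 matched a mouse symbol once case was ignored. The other rows matched no mouse symbol, and clone-style names such as AC021224.1 and AL133387.3 stood among the tested genes. Whether the rows were counted on a human gene set was not tested. Of 10 defining cardiomyocyte markers 9 had counts, led by the myosin heavy chains MYH6 and MYH7, but TNNI3, the cardiac troponin I gene that adult heart muscle expresses abundantly, had 0 counts in all 8 libraries. A count of 0 in these files is therefore not a measure that a gene is silent. Which annotation the rows were counted on was not given in the sources used here, so mouse gene positions and exon lengths below are those of the mouse gene of the same name, and they hold for a row only if its reads were counted there. Levels below are in CPM, a gene's counts scaled to a common library size, here the total over the tested genes adjusted by TMM.

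No promoter window was matched for Mybl1, so its promoter was not searched. Promoter windows from RefSeq (GRCm38.p6, 250 bases before to 50 after the start of transcription) were matched for Myb and Mybl2. They were searched on both strands for GGCGGGA, the core of an E2F site, because DREAM is known to hold the Mybl2 gene off through such a site in resting cells. Each window held 1 match, just before the RefSeq start, and the 30 bases around it are shown with the match in capitals. Both lie on the strand of the gene: 9 bases before the start for Myb (chr10:21160975-21161004, minus strand) and 13 bases before it for Mybl2 (chr2:163054611-163054640, plus strand).
Myb: gcgccagatttGGCGGGAgggggagtgtcc
Mybl2: ccgacgcacttGGCGGGAgataggaaagtg
Of the 32851 promoter windows of this length, 11.3% held GGCGGGA. The DREAM partner motif TTTGAA, known as the CHR core, was in neither window and was in 17.9% of all windows. These matches describe the letters in the windows and were not tested for binding.

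MYBL1 was present in every library and was lower in every siHoxa5 library than in any siN library. Its counts in siN libraries 1 to 4 were 372, 353, 390 and 374, and in siHoxa5 libraries 1 to 4 they were 207, 152, 177 and 128. After scaling, the siN libraries stood at 572, 560.4, 614 and 573 CPM. The siHoxa5 libraries stood at 338, 277, 289 and 233 CPM. The 4 control values lay close together, and the lowest of them was 1.66 times the highest siHoxa5 value.

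The group means were 579.8 ± 23.4 CPM in siN and 284 ± 43.2 CPM in siHoxa5 (SD, n = 4 each), a level 51.0% lower. The log2 fold change from the edgeR fit was -1.02 (SE 0.09). The 4 siN libraries together held 1489 counts and the 4 siHoxa5 libraries 664, and the rate in siHoxa5 was 0.493 of that in siN (exact 95% interval 0.449 to 0.540, counting error alone). MYBL1 made up 0.0575% of all counts in siN and 0.0280% in siHoxa5. For background, 3.38% of the 3020 tested genes were called lower in siHoxa5, and 5.76% had lower siHoxa5 values with no overlap between the groups. MYBL1 was chosen from this contrast, so nothing is read from its place among them.

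**Figure D1:**
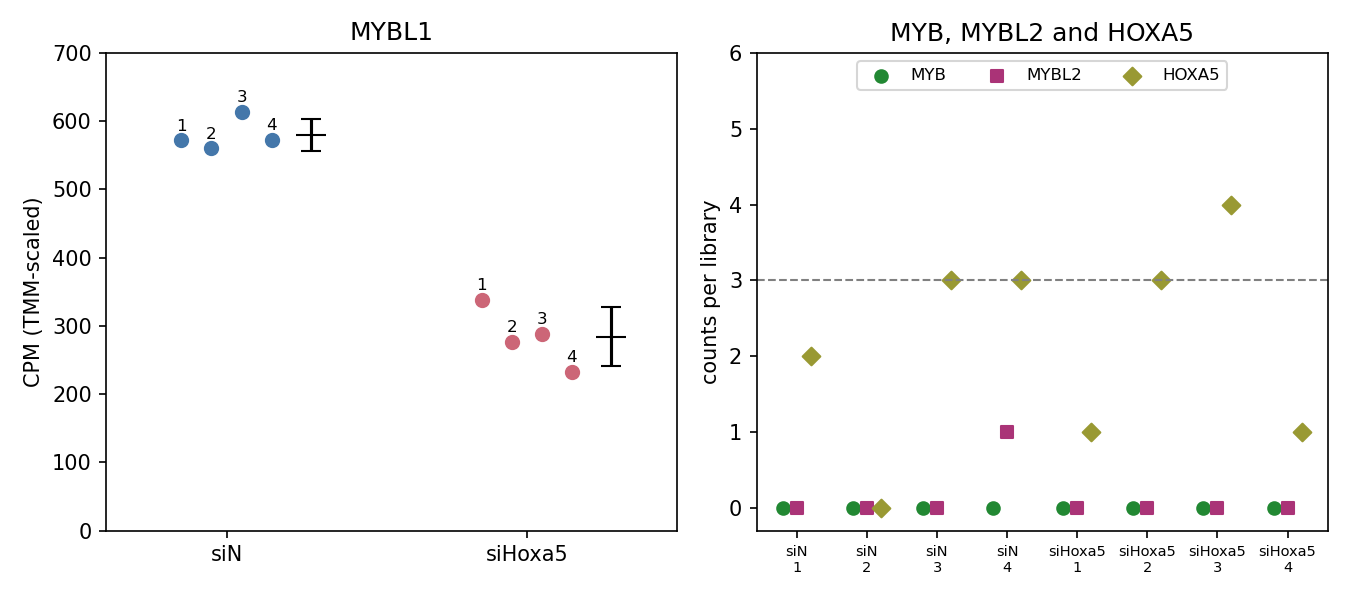
Left: MYBL1 level in CPM for each library (points, numbered by replicate) with the group mean and SD (black). The 4 siN libraries sit between 560.4 and 614 CPM and the 4 siHoxa5 libraries between 233 and 338 CPM. Right: counts of MYB, MYBL2 and HOXA5 in each library. The dashed line marks 3 counts, the limit that a count of 0 allows; MYB is at 0 throughout and MYBL2 has 1 count in siN library 4.

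By reads counted, MYBL1 stood well above a typical tested gene. It ranked 331 of 3020 by mean CPM in siN and 673 in siHoxa5, where the median tested gene, over both groups, had 88.0 CPM. Over both groups MYBL1 had a mean of 432 CPM. CPM is not scaled for gene length, so these ranks order rows by the reads counted in them and not genes by their expression.

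**Figure D2:**
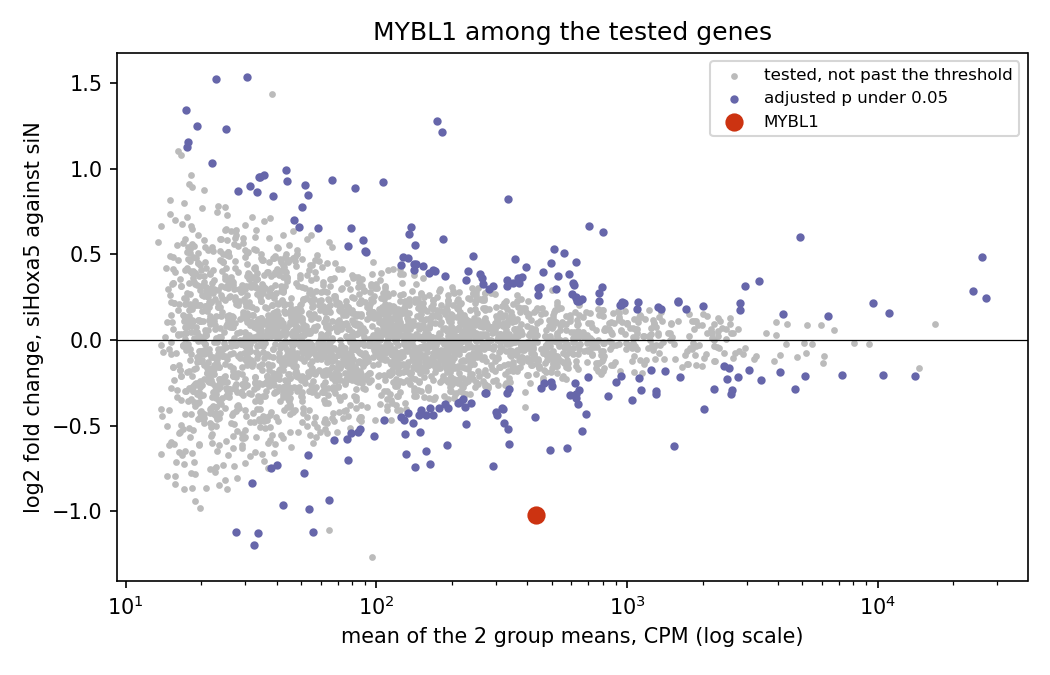
Log2 fold change of each of the 3020 tested genes (siHoxa5 against siN) against its mean level in CPM on a log scale. Blue points passed the edgeR threshold (adjusted p under 0.05), grey points did not. MYBL1 (red), chosen from this contrast, lies at -1.02 and 432 CPM.

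MYB, the founding member, had 0 counts in all 8 libraries. A count of 0 allows up to 3 counts, which is 4.60 to 5.46 CPM in these libraries. MYBL2 had 1 count, in siN library 4 (1.53 CPM), and 0 in the other libraries. Neither gene could be compared between the groups, and these counts could not show a change in either. Whether depth or the assignment of reads to rows set these counts was not tested. Together the 3 rows held 2154 counts, of which MYBL1 held 99.95%.

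Levels of the 3 genes can be set side by side only per length of the gene's exons, which GENCODE M21 puts at 5402 bases for Mybl1, 8933 for Myb and 4632 for Mybl2. On that scale MYBL1 stood at 107 ± 4.33 CPM per kb in siN and 52.6 ± 8.0 in siHoxa5 (SD, n = 4 each). In every library the count rate of MYBL1 was at least 70.6-fold higher per kb than the limit that 0 counts of MYB allow, taken per library, and at least 36.6-fold higher than that of MYBL2. These folds cover counting error alone. They order the rows by the reads counted in them and not the genes by their expression, since an abundant gene can stand at 0 here.

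HOXA5, the siRNA target, was measured by 2, 0, 3 and 3 counts in siN libraries 1 to 4 and by 1, 3, 4 and 1 in siHoxa5 libraries 1 to 4. The groups overlapped, and the rate in siHoxa5 was 1.24 times that in siN (exact 95% interval 0.426 to 3.70, counting error alone). On counting error alone, a fall of HOXA5 to below 0.426 of the siN rate lay outside this interval. A smaller fall in the libraries labelled siHoxa5 was not detectable at this depth. Both statements hold for the gene only if its reads were counted in this row. The groups compared for MYBL1 are accordingly those named by the labels.

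The siHoxa5 libraries varied more in MYBL1 than the controls did. Their highest value was 1.45 times the lowest, against 1.10 times in siN. The SD of the raw counts was 15.2 in siN, where counting error alone gives 19.3, and 33.9 in siHoxa5, where counting error gives 12.9. As a share of the mean level in CPM, the SD was 4.04% in siN and 15.2% in siHoxa5. The 380 tested genes, MYBL1 included, within 1.5-fold of its mean level had medians of 6.40% and 8.47%, and 29 of them had a larger share than MYBL1 in siHoxa5.

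Library 1 had the highest MYBL1 level of the siHoxa5 group and library 4 the lowest. On the first principal component of log2 CPM over all tested genes, which held 25.8% of the variance and includes MYBL1, siHoxa5 libraries 1 and 3 lay at 2.74 and 4.69, libraries 2 and 4 at 10.8 and 10.95, and the siN libraries between -7.77 and -6.30. Without siHoxa5 libraries 2 and 4 the log2 fold change of MYBL1 was -0.88 (SE 0.09). With each library left out in turn it ran from -1.12, without siHoxa5 library 1, to -0.94, without siHoxa5 library 4. Every siHoxa5 value of MYBL1 lay below every siN value, so leaving libraries out could not change its direction. The fold changes without libraries are therefore a description. Libraries 2 and 4 of siHoxa5 lay together on the first component but far from each other on the second, at 8.30 and -13.41.

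**Figure D3:**
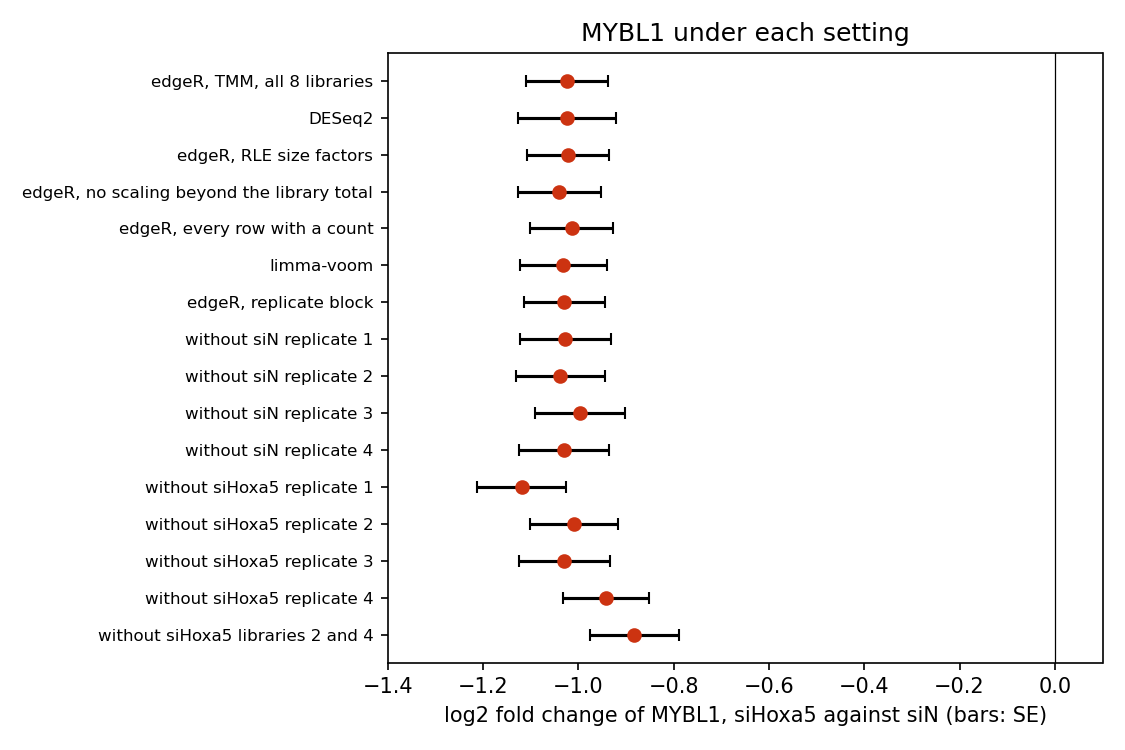
Log2 fold change of MYBL1 (siHoxa5 against siN) with its SE under edgeR with all 8 libraries and under 15 alternatives of tool, scaling, filter, replicate block and libraries left out. The values run from -1.12 to -0.88. MYBL1 was chosen from this contrast, so their side of 0 is a description.

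Markers of cell types other than cardiomyocytes were low except for type I collagen. Summed over the list, cardiomyocyte markers ran from 53688 to 57217 CPM in siN and from 67458 to 72449 CPM in siHoxa5, so this sum was higher in every siHoxa5 library while MYBL1 was lower. Most of the sum came from MYH6 (mean 21752 CPM in siN and 30432 in siHoxa5) and MYH7 (24770 and 29350). Of the 9 tested cardiomyocyte markers 4 rose and 1, the troponin T gene TNNT2, fell. The others, ACTC1 and TNNC1 among them, did not pass the threshold. Of all tested genes 3.74% were called higher and 3.38% lower. Fibroblast markers summed to 10179 to 10848 CPM in siN and to 10904 to 12846 CPM in siHoxa5, nearly all of it from COL1A1 and COL1A2, while TCF21 and LUM were at 0 and PDGFRA and DCN had 1 count each. The part of these shifts in the MYBL1 values was not tested.

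Markers of blood cells, where MYB itself is known to be high, had few counts, which in these files does not show that such cells were absent. The 8 macrophage markers summed to at most 1.82 CPM in any library, with ADGRE1, CD68, ITGAM, MRC1, AIF1 and C1QA at 0. The 8 markers of lymphoid cells and blood progenitors summed to 6.30 to 19.0 CPM in siN and 7.28 to 16.4 CPM in siHoxa5, most of it from SPI1 (38 counts over the 8 libraries) and IKZF1 (13 counts), with CD3E, CD79A and GATA1 among those at 0. Endothelial markers summed to at most 32.7 CPM, all of it from TEK (64 counts) and KDR (46 counts), with PECAM1, CDH5, VWF, EMCN, TIE1 and CLDN5 at 0, and the 6 smooth muscle and pericyte markers to at most 29.2 CPM, nearly all from MYH11 (94 counts), with CNN1, PDGFRB and RGS5 at 0.

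The genes whose profiles over the 8 libraries were nearest to that of MYBL1 were JAG2, HID1, ACVR1B, ABHD2 and CTNNA1. Likeness was measured as the root mean square difference in log2 CPM after each gene was centred on its own mean. It was 0.14 for JAG2, 0.15 for HID1 and for ACVR1B, 0.20 for ABHD2 and 0.21 for CTNNA1, against a median of 0.57 over the 3019 other tested genes. Nearness to MYBL1 selects genes that were lower in siHoxa5 and that varied alike over the libraries. Their fold changes and their order of libraries are therefore a description.

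JAG2, a ligand of Notch receptors, was at 84.8 ± 8.91 CPM in siN and 44.2 ± 2.77 CPM in siHoxa5, a log2 fold change of -0.94. HID1, a protein of the secretory pathway, went from 76.8 ± 6.49 to 35.0 ± 9.39 CPM (-1.12). ACVR1B, a type I activin receptor, went from 45.6 ± 3.42 to 19.6 ± 5.84 CPM (-1.20). ABHD2, a lipid hydrolase, stood at 179 ± 19.6 against 107.0 ± 12.1 CPM (-0.74). CTNNA1, which encodes alpha-catenin of cell junctions, was the one of the 5 with a level like that of MYBL1, at 602 ± 24.2 CPM in siN and 384 ± 70.2 CPM in siHoxa5 (-0.64). SDs are over n = 4 libraries a group. JAG2, HID1 and ABHD2, like MYBL1, had their highest siHoxa5 value in library 1 and their lowest in library 4, a likeness that the selection favours. For JAG2 siHoxa5 libraries 2 and 4 were nearly level, at 41.90 and 41.83 CPM.

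**Figure D4:**
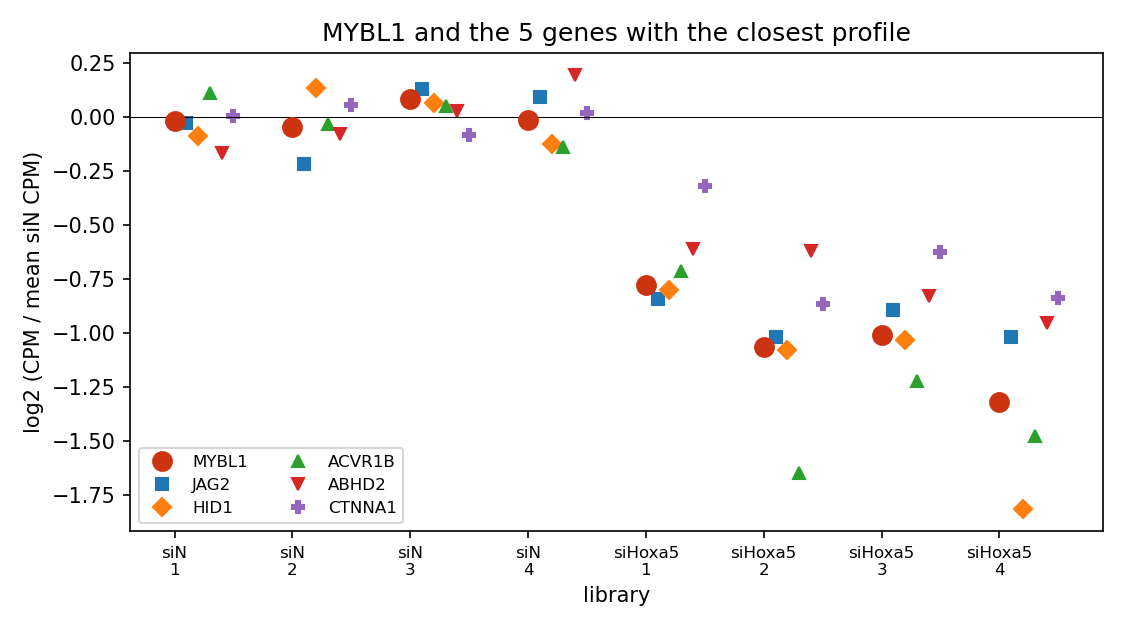
Level of MYBL1 (red circles) and of the 5 genes with the nearest profile in each library, as log2 of the CPM over the gene's mean siN CPM. All 6 genes lie below 0 in every siHoxa5 library. MYBL1, JAG2, HID1 and ABHD2 have their lowest point in siHoxa5 library 4, with JAG2 nearly as low in siHoxa5 library 2. The 5 genes were chosen for their nearness to MYBL1 over these libraries.

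The mouse Mybl1 gene (ENSMUSG00000025912.16) lies on chromosome 1 of GRCm38, from 9667415 to 9700209 on the minus strand, and GENCODE M21 lists 5 transcripts for it, 3 of them protein coding. No other gene in that annotation overlaps it. Myb (chromosome 10, 21124935 to 21160984, minus strand) overlaps the antisense gene Gm26577, and Mybl2 (chromosome 2, 163054687 to 163084688, plus strand) overlaps the microRNA gene Mir7003 on the same strand. The treatment of reads matching more than 1 gene was not given in the sources used here.

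No chromosomal neighbour of MYBL1 that could be tested passed the threshold. Of the 5 nearest protein-coding genes on each side, VCPIP1, RRS1 and PCMTD1 passed the filter. VCPIP1, a deubiquitinase gene whose nearer end lies 18413 bases away, was at 197 ± 5.33 CPM in siN and 191 ± 13.1 CPM in siHoxa5 (SD, n = 4 each, log2 fold change -0.04, SE 0.11, edgeR adjusted p = 0.891). RRS1, a ribosome assembly factor, had 0.04 (SE 0.38) and PCMTD1 0.31 (SE 0.22), neither past the threshold. SGK3, a serum- and glucocorticoid-regulated kinase gene, had 21 counts in siN and 20 in siHoxa5 and was not tested.

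Each MYB gene has a gene of the SGK kinase family among its 10 neighbours. SGK3 lies 97898 bases from Mybl1, SGK1 721200 bases from Myb and SGK2 40560 bases from Mybl2. SGK1 was the only one of these kinase genes that passed the filter, at 19.8 CPM in siN and 14.8 CPM in siHoxa5 (log2 fold change -0.43, SE 0.38), not past the threshold, and SGK2 had 0 counts. Over the neighbours of all 3 genes, 30 were listed, 28 were matched to a row, 15 had a count and 7 were tested. Of the 7, 1 rose and none fell, beside 3.74% of all tested genes called higher and 7.12% called in either direction. At an unadjusted edgeR p under 0.05 the counts were also 1 and 0, limma-voom called 1 and DESeq2 called 0. The riser was SRSF6, a splicing factor gene 117566 bases from Mybl2. It was at 570.2 ± 46.6 against 677 ± 67.6 CPM (SD, n = 4 each, log2 fold change 0.25, SE 0.07, edgeR adjusted p = 0.0239). Its call ended with DESeq2, without siHoxa5 library 2 or 4 or both, and without siN library 1 or 3 (adjusted p up to 0.440).

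Of the partners of MYB proteins in the MuvB and DREAM complexes, edgeR called 0, as did DESeq2 and limma-voom, and 1 had an unadjusted edgeR p under 0.05. Of 13 listed genes 11 had a count and 5 were tested, with a median log2 fold change of 0.13 against -0.0037 over all tested genes. LIN9, the MuvB subunit that MYBL2 contacts, had 0.80 (SE 0.38, edgeR adjusted p = 0.213) on 32 counts in siN and 51 in siHoxa5. Its counts were 8, 9, 4 and 11 in siN libraries 1 to 4 and 13, 6, 21 and 11 in siHoxa5 libraries 1 to 4. Against a minimum count of 10, LIN9 passed the filter mostly through siHoxa5, which favours a higher value there. Nothing is therefore read from its unadjusted p. LIN54, the subunit that binds DNA, had 0.27 (SE 0.14), RBBP4, a histone-binding subunit, 0.13 (SE 0.11), and TFDP1, the partner of E2F factors, -0.23 (SE 0.32), none past the threshold. The pocket protein genes RBL1 and RBL2 had 23 and 9 counts in all and could not be compared. FOXM1, which joins MuvB in dividing cells, had 1 count.

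Among cofactors and modifying enzymes, 21 of 27 listed genes were tested. None rose and 1 fell by edgeR (1 and 2 at an unadjusted p under 0.05), DESeq2 called 0 and limma-voom 1, beside 3.38% of all tested genes called lower. The groups did not overlap for 2 of the 21, where 12% of all tested genes had no overlap, and the median log2 fold change was 0.04. The coactivator genes CREBBP (-0.02, SE 0.11) and EP300 (0.06, SE 0.11), which carry the histone acetyltransferases that MYB proteins recruit, gave no call, nor did KMT2A, the methyltransferase that binds MYB with menin (0.01, SE 0.12). PPID, the cyclophilin that binds the MYB DNA-binding domain, fell from 100.1 ± 5.65 to 69.1 ± 11.8 CPM (SD, n = 4 each; -0.54, SE 0.17, edgeR adjusted p = 0.0350). That call ended without any 1 of the 4 siN libraries, without siHoxa5 library 1, 3 or 4, with DESeq2 and with every row included (adjusted p up to 0.138). FBXW7, a ubiquitin ligase subunit that marks MYB for breakdown, had 0.33 (SE 0.17) and PSIP1, a chromatin reader, 0.21 (SE 0.11), neither past the edgeR threshold.

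Reported target genes of the family outside mitosis and meiosis went both ways. Of 21 listed genes 6 were tested, of which 1 rose, 1 fell and 4 did not pass, where 7.12% of all tested genes were called, with a median of 0.04. HSPA5, which encodes the chaperone BiP, fell from 1168 ± 34.0 CPM to 917 ± 23.6 CPM (SD, n = 4 each), and COL1A1, a type I collagen chain, rose from 8861 ± 166 to 10284 ± 725 CPM; each kept its call under all 15 alternatives. COL1A1 is also a fibroblast marker, and both were known from earlier work on these data when the list was drawn up. MAT2A, which makes S-adenosylmethionine, had 0.17 (SE 0.06, edgeR adjusted p = 0.0954) and passed without siHoxa5 library 1, and COL1A2 had 0.15 (SE 0.14) and passed without siHoxa5 libraries 2 and 4 (0.33). The textbook target genes MYC, KIT and BCL2 had 2, 2 and 88 counts over the 8 libraries, and of these only BCL2 could be tested (-0.11, SE 0.36).

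Few genes of the G2 and M phases, where MYBL2 acts with MuvB, had enough counts to be tested. Over the whole series 7926 of the 33514 rows had a count in any library, and a count of 0 here is not a measure that a gene is silent. Of 34 listed genes 13 had 0 counts, CDK1, AURKA, AURKB, CCNB2 and BIRC5 among them. MKI67, the common marker of dividing cells, had 7 counts in all. The 5 that were tested had a median log2 fold change of 0.42; 2 rose and none fell by edgeR, with the same counts at an unadjusted p under 0.05, while limma-voom called 2 and DESeq2 0. Of all tested genes 3.74% were called higher, and 5 tested members are too few to set a share beside that. KIF23, a kinesin of the cleavage furrow, had 22, 12, 9 and 17 counts in siN libraries 1 to 4 and 26, 31, 24 and 24 in siHoxa5 libraries 1 to 4. Its level was 23.3 ± 8.56 CPM in siN and 45.4 ± 7.61 CPM in siHoxa5 (SD, n = 4 each; 0.95, SE 0.27, edgeR adjusted p = 0.0138), with no overlap between the groups.

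TOP2A, the topoisomerase that untangles replicated chromosomes, rose from 106.7 ± 4.15 to 144 ± 18.5 CPM (SD, n = 4 each; 0.44, SE 0.14, edgeR adjusted p = 0.0394). The call of KIF23 ended with DESeq2, without siN library 2 or 3 and without siHoxa5 library 2 alone or with library 4. That of TOP2A ended with DESeq2, without scaling, with every row included, without any 1 of the siN libraries and without siHoxa5 library 1 or 3 (adjusted p up to 0.167, and up to 0.162 for KIF23). ECT2, an activator of the furrow's GTPase, had 0.42 (SE 0.31), CCNA2, the cyclin that with its kinase phosphorylates MYBL2, 0.26 (SE 0.26), and ANLN, the furrow scaffold anillin, -0.08 (SE 0.19), none past the threshold.

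The germ-line programme of MYBL1 could not be followed. Of 23 listed piRNA and meiotic genes 7 had a count, and none passed the filter. Summed over the list the counts were 43 in siN and 43 in siHoxa5, of which CREM, a cAMP-responsive factor also active outside the germ line, held 32 and 33. PIWIL1, DDX4, MOV10L1, TDRD1, SYCP1, SYCP3 and DMC1 were at 0 in all 8 libraries, and MAEL had 2 counts in siN and 1 in siHoxa5.

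Other genes with a Myb-like or SANT domain, the wider family by sequence, had a median log2 fold change of -0.01 over the 22 of 36 listed genes that were tested. By edgeR 1 rose and none fell (1 and 1 at an unadjusted p under 0.05), limma-voom called 1 and DESeq2 0, beside 3.74% of all tested genes called higher. EZH2, the methyltransferase of Polycomb repressive complex 2, rose from 141 ± 19.7 to 185 ± 23.3 CPM (SD, n = 4 each; 0.39, SE 0.13, edgeR adjusted p = 0.0394), although the groups overlapped and the call ended under 9 of 15 alternatives, among them DESeq2, leaving out siN library 1, 3 or 4 or siHoxa5 library 2 or 4, and leaving out both siHoxa5 libraries 2 and 4 (adjusted p up to 0.371). DMTF1, the cyclin D-binding factor with Myb-like repeats, had -0.04 (SE 0.13). DNAJC1 and DNAJC2, J-domain proteins with SANT domains, had -0.46 (SE 0.20) and -0.27 (SE 0.16), and SMARCC2, a subunit of SWI/SNF remodellers, 0.14 (SE 0.08), none past the threshold.

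**Figure D5:**
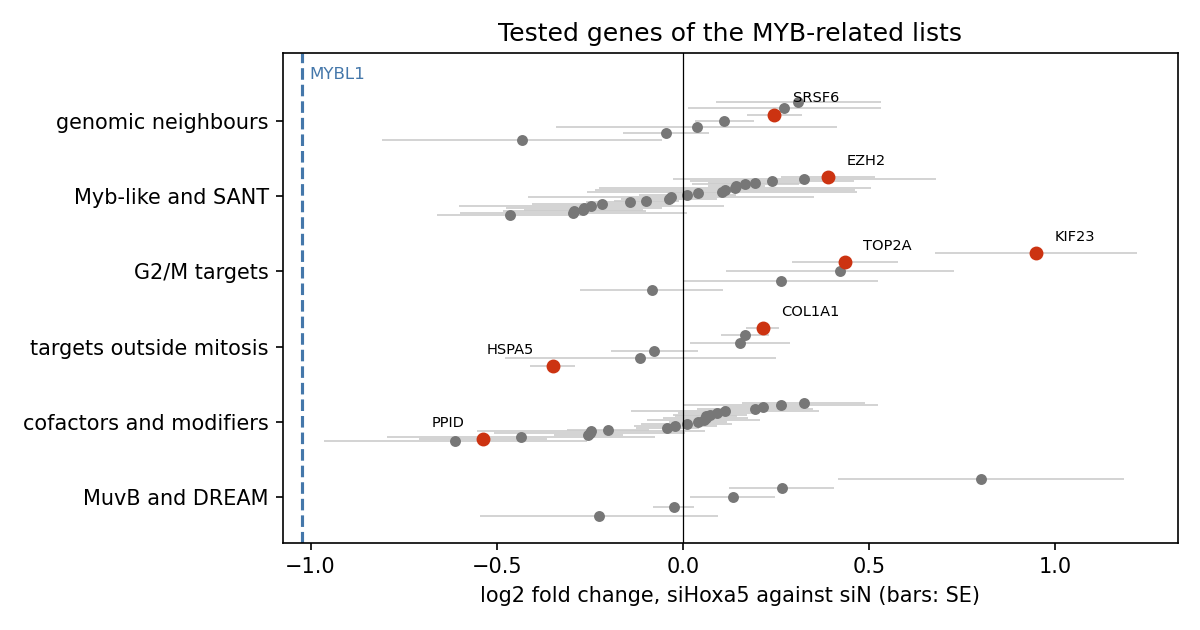
Log2 fold change (siHoxa5 against siN) with its SE for each tested gene of 6 lists related to the MYB family; red points passed the edgeR threshold and grey points did not. Most genes lie between -0.5 and 0.5. The dashed line marks the value of MYBL1 (-1.02), which was chosen from this contrast.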

How the data were processed

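The 8 RNA-seq libraries (poly-A, TruSeq, per the labels) were used as deposited. The submitters' processing notes name the build mm10, the aligner STAR (2.6.1b), HTSeq, FastQC (0.11.8) and R (3.5.3). The authors deposited estimated counts per gene symbol, not normalized, whole numbers in all but 4 rows. Groups and replicate numbers come from the sample titles. Same-numbered libraries did not deviate together (no correlation of their deviations from the group means was over 0.1). Counts were rounded, filtered (filterByExpr, minimum count 10, minimum total 15), TMM-scaled and tested with edgeR 4.0.16 (robust quasi-likelihood, R 4.3.3), with Benjamini-Hochberg adjustment over all 3020 genes and a threshold of 0.05. The common biological coefficient of variation was 6.10%. Profiles used log2 CPM with a prior count of 2. Alternatives were DESeq2 1.42.0, limma-voom (limma 3.58.1), RLE or no scaling, no filter, a replicate block and libraries left out. Members and lists were chosen with earlier results of these data known. Named genes are the members, HOXA5, each list's called genes or up to 4 with the smallest p, tested neighbours and the 5 nearest profiles; others were named after their values were seen. Some genes the rule selects are not reported here. In simulated counts for this comparison (2946 genes tested), edgeR found 87.1% of 2-fold, 54.7% of 1.5-fold and 19.7% of 1.25-fold changes, with 0 false calls of 102. Intervals and limits of 0 cover counting error only, at a 95% level (exact).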

Additional observations from a re-analysis of the deposited data

Results flagged for a closer look

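For MYBL1, 32 other named genes and 6 summed marker lists, each group of 4 libraries was searched for 1 library set far from the other 3, by the gap to the nearest value as a share of the group's range. Of the 78 groups examined 8 had such a library, where chance gives about 1 in 20 for values with a normal spread. Small counts with ties, as in the macrophage list, do not have that spread. No excess over chance is therefore read from the 8. MYBL1 had none in either group. FBXW7 was lowest in siHoxa5 library 1 (91.4 CPM, the others 110.9 to 111). ECT2 was highest in siN library 2 (25.4 CPM, the others 19.9 to 20.5) and lowest in siHoxa5 library 2 (21.9 CPM, the others 30.9 to 31.0). DNAJC2 was lowest in siN library 4 (79.7 CPM, the others 120.0 to 122), and VCPIP1, the neighbour of MYBL1, was highest there (205 CPM, the others 194 to 195). The macrophage markers summed to 1.57 CPM in siN library 3 and 1.82 CPM in siHoxa5 library 2, each a single count, with 0 in the other 3 libraries of the group. The lymphoid and blood progenitor markers summed to 7.28 CPM in siHoxa5 library 4, the others to 16.3 to 16.4 CPM.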

How the results depend on the processing

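The log2 fold change of MYBL1 ran from -1.12 to -0.88 under all 15 alternatives and moved by less than the SD between replicates. With each library left out it ran from -1.12 to -0.94. MYBL1 was chosen from this contrast and its groups did not overlap, so its unchanged direction is a description. With the replicate block the log2 fold change of MYBL1 was -1.03 and 250 genes were called, against 215 without the block. The replicate numbers are not known to pair the libraries. DESeq2 called 119 genes, 60 higher and 59 lower, and without siHoxa5 libraries 2 and 4 the calls were 143, of which 68 higher, against 113 higher and 102 lower in the main test. Leaving out each library gave 145 to 260 calls, with 73 to 130 higher and 70 to 130 lower. The list of targets outside mitosis and meiosis had 2 to 3 calls under every alternative run. Of the other lists, DESeq2 called 0 cofactors, 0 of the G2 and M genes, 0 SANT genes and 0 neighbours. With no scaling 1 of the G2 and M genes and 0 SANT genes were called. With every row included the calls were 0 cofactors, 1 of the G2 and M genes and 0 SANT genes. Without siHoxa5 libraries 2 and 4 they were 1, 0 and 0 for G2 and M genes, SANT genes and neighbours. Leaving out each library gave 0 to 1 for cofactors, SANT genes and neighbours, and 0 to 2 for the G2 and M genes. MuvB and DREAM genes had 0 calls under every alternative run. Of 12 named genes that passed, 6 (HSPA5, COL1A1, JAG2, HID1, ABHD2 and CTNNA1) kept their calls under all 15 alternatives, and none reversed. JAG2, HID1, ABHD2 and CTNNA1 were named for their nearness to MYBL1 in these libraries. HSPA5 and COL1A1 were known from earlier work on these data. Their kept calls are therefore a description.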
